A study of Homo sapiens with 4 samples.

Results

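The genes described here are 45 genes of glycolysis and of the response to low oxygen, a set listed by name for what its members are known to do. Earlier results of these data were known when the set was chosen. Of the 45, 44 had a matched probe among the 22439 genes named on the array, and 41 could be tested. Expression was measured in A549 cells, an established line from a human lung adenocarcinoma, by labelling total RNA with Cy3 and hybridizing it to Agilent arrays. The 4 arrays held 1 sample that received *miR-486-5p*, the guide strand of the miRNA hairpin pre-*miR-486*, 1 that received *miR-486-3p*, its passenger strand, and 2 mock samples treated with the Lipofectamine RNAiMAX reagent and no RNA. All cells were grown in RPMI medium, and the time between transfection and RNA extraction was not given in the sources used here. No array of a control RNA was analysed, so a change set off by any transfected RNA cannot be told apart from one that belongs to the sequence of a strand. Each strand has 1 array, and nothing states that the mock arrays came from separate cultures.

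Glycolysis breaks glucose down to pyruvate in the cytosol, and many tumor cells turn much of that pyruvate into lactate instead of oxidizing it in mitochondria. The hypoxia-inducible factors (HIFs) raise transcription of most glycolytic enzymes, and of genes for vessel growth, collagen modification and mitochondrial turnover. When oxygen is present, prolyl hydroxylases of the EGLN family mark the HIF alpha subunits for degradation, so HIF activity is set largely at the level of the protein, which an RNA array does not measure.

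A level is given below as the log2 of a probe's background-corrected signal minus the 75th percentile of its array, and a gene with several probes is the mean over them; levels are comparable between arrays but not between genes. A log2 difference is the level after transfection of a strand minus the average of the 2 mock levels. The test was limma's moderated test over all 33500 probes above background, with Benjamini-Hochberg adjusted p at 0.05, and a gene was called when at least 1 of its probes passed. Because just the mock arrays repeat a condition, they alone supply the spread: the test takes it that each transfected array would vary between repeats as the mock arrays did, and the standard errors (SE) rest on that assumption. For the 41 members, each as the mean over its probes, the mock arrays differed by 0.09 at the median and by 0.45 at most. Single probes, on which the test ran, could differ more: a probe of *PDP2* was at 0.74 on mock 1 and 1.50 on mock 2. Over all 28246 probes above background on the 4 arrays, the SD of the difference between the mock arrays was 0.20. Among A549 epithelial markers, *KRT8*, *KRT18* and *KRT19* had probes above background on all 4 arrays, *EPCAM* on 2 and *CDH1* on none. Of 8 markers of blood, endothelial and stromal cells, 5 had such a probe on all arrays, and *PECAM1* and *COL1A2* had none on any. Of the 4 epithelial markers tested, *KRT19* was called lower and *KRT8* had probes called both ways after *miR-486-5p*, while with *miR-486-3p* 2 were lower, 1 (*KRT19*) higher and *KRT8* again mixed. Of the 6 other markers tested, none was called after *miR-486-5p* (1 lower and 2 higher at an unadjusted p below 0.05 by limma, none by the methods' t-test). After *miR-486-3p*, *CDH5* and *COL1A1* were called lower and *PTPRC* and *CD14* higher, with log2 differences from −0.69 for *CDH5* to 2.22 for *CD14*. *COL1A1* was not well above background on either strand array. Its call rests on that dim reading, and its bounded log2 difference was 0.04. The part of these markers in the results below was not tested.

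After *miR-486-5p*, limma called 5 members lower and 1 higher of the 41. The lower ones were the lactate exporter *SLC16A3*, the glycolytic regulator *PFKFB4*, the collagen cross-linking enzyme *LOX*, the pyruvate dehydrogenase phosphatase *PDP2* and the vessel growth factor *VEGFA*, and the higher one was the secreted glycoprotein *STC1*. These calls amount to 12.2% of the members lower and 2.44% higher, where 6.63% of all genes tested were called lower and 3.55% higher. When only the size of the log2 difference was counted, 12 members lay below −0.5 and 5 above 0.5, against 15.9% and 13.6% of all genes. The median log2 difference of the members was −0.24, with 30 of 41 below 0, while the median of all genes was 0.03. In a culture measured as a whole, fewer cells that express a gene and less RNA per cell cannot be told apart. All 6 calls were absent when the authors' log2 values were used and when no filter on dim probes was applied. In those settings no gene was called after *miR-486-5p*, of 16662 and 22439 tested, so the loss is not particular to the members. The smallest adjusted p that the test gave for any probe after *miR-486-5p* was 0.0475. *LDHA*, *ADM*, *BNIP3* and *ANGPTL4*, not called here, were each called under 5 of 7 other limma settings, *ANGPTL4* higher and the rest lower. By limma's unadjusted p, 23 of the 41 had a probe below 0.05, and these 23 include the 6 called members. The same count over all genes was not made, nor was it made for any other unadjusted count given here.

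After *miR-486-3p*, 15 members were called lower and 9 higher. The lower ones held 6 glycolytic enzymes and 3 genes of pyruvate and lactate handling, together with the HIF alpha subunits *HIF1A* and *EPAS1*. Of the 9 higher ones, 6 were hypoxia-inducible genes outside glycolysis. Both groups had calls each way: of 24 glucose and pyruvate members tested, 10 were lower and 3 higher. Among the 14 hypoxia-inducible members outside glycolysis, 3 were lower and 6 higher. The members called lower were 36.6% and those called higher 22%, set against 30.4% and 30.7% of all genes tested on the same arrays, so the number of calls in the set was near that of the array as a whole. By size alone, 17 members were below −0.5 and 10 above 0.5, against 27.2% and 30.3% of all genes. The median member difference was −0.33, and that of all genes 0.06. With each array scaled to its median instead, the median of all genes moved to −0.32 and that of the members to −0.70. The split of member calls became 26 lower and 5 higher, while 7363 of the 16662 genes tested were lower and 3202 higher. Relative to all genes the members' median lay at −0.38 under both of these scalings. After quantile normalization it lay at −0.15, with 16 members lower and 10 higher, against 5359 and 5057 of the 16662 genes.

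**Figure D1:**
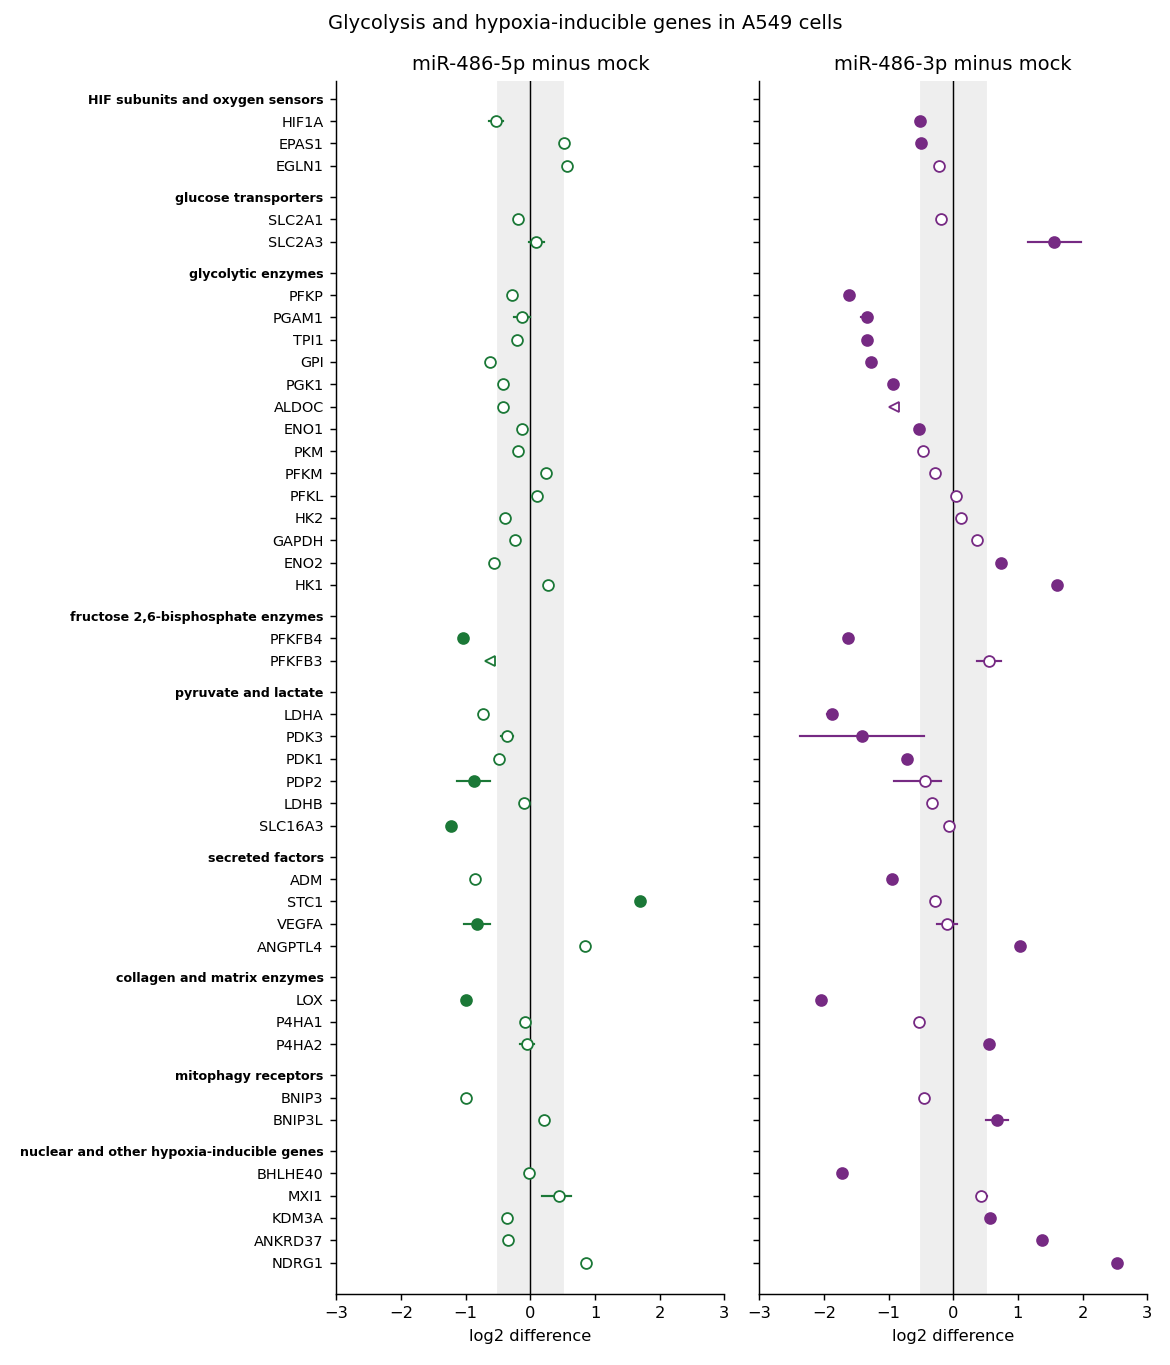
The log2 difference from the mock mean (x axis) is plotted for the 41 tested members by role, after *miR-486-5p* at left and *miR-486-3p* at right; filled points were called by limma, horizontal lines span the probes of a gene, triangles are bounds, and the gray band runs from −0.5 to 0.5. After *miR-486-5p* 6 points are filled, and after *miR-486-3p* 24 are, with glycolytic enzymes from *PFKP* at −1.61 to *HK1* at 1.61.

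*PFKFB4* and *LOX* were called lower after both strands, and 13 members were called after neither: *EGLN1*, *SLC2A1*, *HK2*, *PFKL*, *PFKM*, *ALDOC*, *GAPDH*, *PKM*, *PFKFB3*, *LDHB*, *P4HA1*, *BNIP3* and *MXI1*. How many of all genes share these patterns was not counted, and both comparisons use the same mock arrays. Whether the overlap is particular to the members was therefore not tested. A probe of *EGLN3*, *CA9* and *CA12* was on the array but was not well above background on any of the 4, and *ALDOA* had no matched probe, so these 4 have no result. Of the 15 lower calls after *miR-486-3p*, 13 were also made under all 7 of the other limma settings tried; that of *HIF1A* was lost without a filter on dim probes, and that of *ENO1* also with quantile normalization and the authors' values. Of the 9 higher calls, 5 were (*SLC2A3*, *HK1*, *ANGPTL4*, *ANKRD37* and *NDRG1*), and *ENO2*, *P4HA2*, *BNIP3L* and *KDM3A* lost theirs with median scaling alone. The strands were also compared with each other, array against array, which uses no mock level but the spread of the mock arrays: *miR-486-3p* was lower than *miR-486-5p* for 14 members and higher for 13, against 26.4% and 25.7% of all genes tested.

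HIFs bind DNA at a short core, and promoter sequence is shown here because members with such a core fell, rose and were not called on the same array. RefSeq promoters of the build GRCh38.p14 were found for 40 of the 45 members, and the 250 bases before the first listed start of each gene were searched on both strands for ACGTG and GCGTG; differing in the first letter, these never match at the same place on a strand. ACGTG was in 18 of the 40 (45%) and in 18.7% of all 27305 promoters of the table, and GCGTG in 14 (35.0%) and in 31.9%. Among members called lower after *miR-486-3p*, 6 of 15 promoters held ACGTG, among those called higher 3 of 6, and among those not called 7 of 15. For GCGTG the counts were 7 of 15 lower, 1 of 6 higher and 5 of 15 not called. A match of letters is not a bound site. The copy nearest the start is shown for 7 members, 25 bases each along the strand of the gene, with ACGTG (or CACGT, its reverse complement) in capitals; *LDHA*, *PGK1*, *LOX* and *BHLHE40* were lower after *miR-486-3p*, *ENO2* and *ANKRD37* higher, and *PDP2* lower after *miR-486-5p*.
*LDHA* (chr11:18394480-18394504, plus strand): tgggttcccgCACGTccgccggccc
*PGK1* (chrX:78104055-78104079, plus strand): acggaagccgCACGTctcactagta
*LOX* (chr5:122078287-122078311, minus strand): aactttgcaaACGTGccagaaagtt
*BHLHE40* (chr3:4979278-4979302, plus strand): cagggtagaaCACGTagctccaacc
*ENO2* (chr12:6914452-6914476, plus strand): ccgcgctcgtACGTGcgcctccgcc
*ANKRD37* (chr4:185396688-185396712, plus strand): gtgtttgtgtACGTGcggccgtggc
*PDP2* (chr16:66880309-66880333, plus strand): gatctcaggcACGTGactgcctggt

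Of the factors themselves, *HIF1A* and *EPAS1* encode alpha subunits, *EPAS1* being HIF-2 alpha. The level of *HIF1A* over its 2 probes was 0.51 on mock 1 and 0.54 on mock 2, −0.01 with *miR-486-5p* and 0.01 with *miR-486-3p*. Both strand arrays were thus below both mock arrays, by 0.53 and 0.51, and only 1 of the probes passed the test, after *miR-486-3p* (log2 difference −0.57, SE 0.104, adjusted p 0.0334). *EPAS1* was at −1.28 in both mock samples, −0.76 with *miR-486-5p* and −1.78 with *miR-486-3p*. It lay on opposite sides of the mock arrays after the 2 strands: the fall after *miR-486-3p* was called (1.42-fold, SE 0.0874 on the log2 scale, adjusted p 0.0311), the value after *miR-486-5p* was 0.52 (adjusted p 0.0657), and the strands differed from each other by 2.02-fold (adjusted p 0.0171). *EGLN1*, the main oxygen-sensing prolyl hydroxylase, was at 2.04 in both mock samples, 2.60 with *miR-486-5p* and 1.83 with *miR-486-3p*. Neither difference from mock was called (adjusted p 0.0610 and 0.142), yet *miR-486-3p* was 1.71-fold below *miR-486-5p* (SE 0.101, adjusted p 0.0238). Among 12 other genes of HIF regulation, none was called after *miR-486-5p* (1 was higher at an unadjusted p below 0.05, by limma and by the methods' t-test), and 5 were lower and 2 higher after *miR-486-3p*, against 30.4% and 30.7% of all genes; the alpha subunit *HIF3A*, one of the 12, was at 0.13 there and was not called. *ELOB*, a subunit of the *VHL* ubiquitin ligase that takes hydroxylated HIF alpha, was 3.66-fold lower after *miR-486-3p* (log2 difference −1.87, SE 0.0929, adjusted p 0.00768), while its log2 difference after *miR-486-5p* was 0.09.

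Glucose enters the cell through transporters of the SLC2A family. *SLC2A1* (GLUT1) was at 3.01 and 3.04 in mock cells and at 2.84 after each strand, a log2 difference of −0.19 each time that was not called (adjusted p 0.242 and 0.182). *SLC2A3* (GLUT3) was at −1.03 and −0.89 in mock cells, −0.86 with *miR-486-5p* and 0.60 with *miR-486-3p*. Only the *miR-486-3p* array stood apart, 2.95-fold above mock, with both probes called at adjusted p 0.00762 and 0.0188. The difference between the strands was 2.76-fold.

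Of the 14 glycolytic enzymes tested, none was called after *miR-486-5p*, and their median log2 difference was −0.22. At an unadjusted p below 0.05, limma and the methods' t-test each put 4 of them lower and none higher. The share of all genes at that threshold was not counted. After *miR-486-3p*, 6 were lower, 2 higher and 6 not called, with a median of −0.50, where 30.4% and 30.7% of all genes were called lower and higher. Hexokinases carry out the first step, trapping glucose as its phosphate. *HK1* was at 1.56 and 1.73 in mock cells, 1.91 with *miR-486-5p* and 3.25 with *miR-486-3p*, so that it was 3.06-fold above mock after *miR-486-3p* (SE 0.125 on the log2 scale, adjusted p 0.0101). *HK2*, the hexokinase that HIFs and many tumors raise, was at 3.26 and 3.12 in mock cells, 2.80 with *miR-486-5p* and 3.31 with *miR-486-3p*, and was called after neither strand. The 2 isoforms thus had unlike values on the *miR-486-3p* array, log2 differences of 1.61 and 0.11. A second probe of *HK2* was not well above background on any array.

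Of the next 5 enzymes of the pathway, *GPI* and *PFKP* were called lower after *miR-486-3p* and *PFKL*, *PFKM* and *ALDOC* were not. *GPI*, which makes fructose 6-phosphate, was at 7.40 and 7.37 in mock cells, 6.75 with *miR-486-5p* and 6.12 with *miR-486-3p*, 2.40-fold below mock after *miR-486-3p* (SE 0.0889, adjusted p 0.00918). Of the 3 phosphofructokinase genes, which share the committing step of glycolysis, *PFKP* had levels of 4.19 and 4.36 in mock cells, 3.99 with *miR-486-5p* and 2.66 with *miR-486-3p*. Both of its probes fell after *miR-486-3p*, by 1.64 and 1.59 on the log2 scale (adjusted p 0.00979 and 0.0102), while *PFKL* and *PFKM* gave log2 differences of 0.04 and −0.28 that were not called. The aldolase *ALDOC* was at −3.70 and −3.25 in mock cells, −3.89 after *miR-486-5p* and not well above background after *miR-486-3p*, which bounds that difference at −0.92, at least 1.89-fold lower. The limma test used the signal as read, a difference of −0.99, and did not call it (adjusted p 0.0611). With normexp background correction the difference was 0.11.

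In the later steps, *TPI1*, which interconverts the triose phosphates, was 2.52-fold below mock after *miR-486-3p* (7.50 and 7.60 in mock cells, 6.22 with *miR-486-3p*; SE 0.101, adjusted p 0.00988). *GAPDH*, the enzyme often used as a reference gene, was at 8.53 and 8.55 in mock cells, 8.30 with *miR-486-5p* and 8.90 with *miR-486-3p*. It was called against mock after neither strand (adjusted p 0.173 and 0.0563), it was 1.51-fold higher after *miR-486-3p* than after *miR-486-5p* (SE 0.102, adjusted p 0.0349), and with arrays scaled to their medians its log2 difference after *miR-486-3p* became −0.01, whereas 4 of the 7 other settings called it higher. *PGK1*, which makes the first ATP of the pathway, was at 7.13 and 7.10 in mock cells, 6.69 with *miR-486-5p* and 6.18 with *miR-486-3p*, 1.91-fold lower after *miR-486-3p* (SE 0.0887, adjusted p 0.0125). *PGAM1* fell 2.53-fold after *miR-486-3p* over 2 probes, both called at adjusted p 0.00896 and 0.0111; its near-identical copy *PGAM4* was 2.54-fold lower, and the array need not tell the pair apart. The enolases diverged: *ENO1* was 1.45-fold lower after *miR-486-3p* (SE 0.108, adjusted p 0.0402) and *ENO2* 1.67-fold higher (SE 0.0873, adjusted p 0.0168). *ENO2* was at 1.53 in both mock samples, 0.96 with *miR-486-5p* and 2.27 with *miR-486-3p*, and the strands differed by 2.47-fold (adjusted p 0.0135). *PKM*, which makes pyruvate, was at −0.47 after *miR-486-3p* relative to mock and was not called (adjusted p 0.0600).

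**Figure D2:**
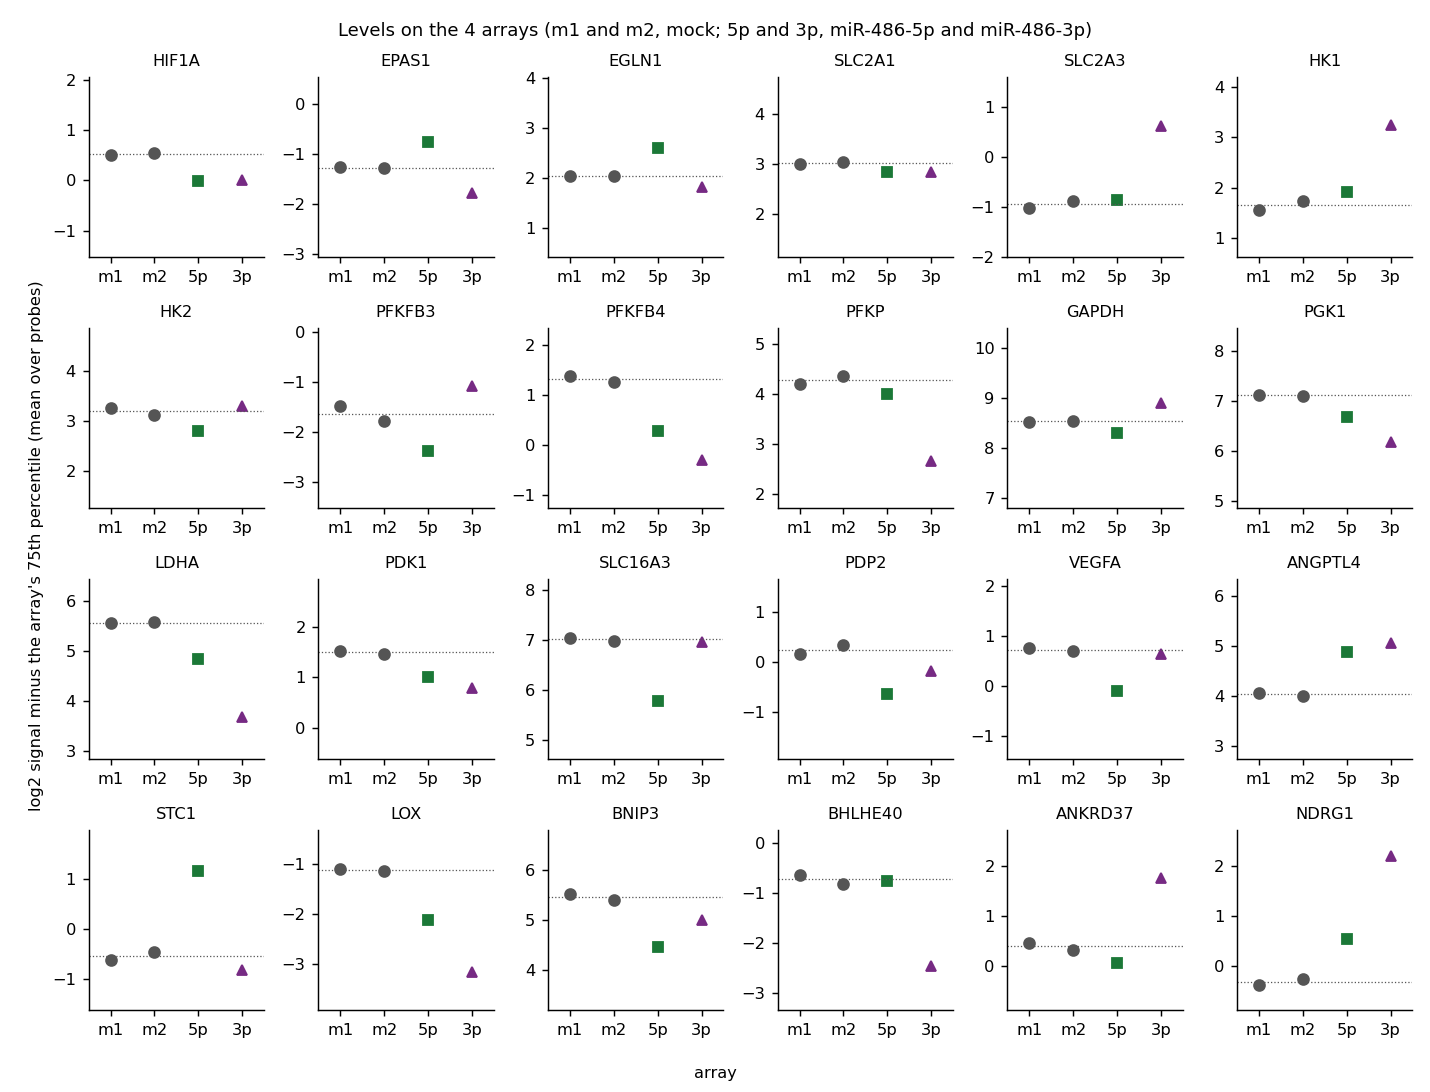
Levels of 24 members (y axis, log2 signal minus the 75th percentile of the array, mean over probes) are plotted for mock 1 and mock 2 (gray circles, their mean dotted), *miR-486-5p* (green square) and *miR-486-3p* (purple triangle), each panel spanning the same range of log2 units. The mock points lie close together in each panel, and *LDHA*, *LOX* and *PFKFB4* step down from mock to *miR-486-5p* to *miR-486-3p*.

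The enzymes *PFKFB3* and *PFKFB4* set the amount of fructose 2,6-bisphosphate, the strongest activator of phosphofructokinase. *PFKFB4* was at 1.38 and 1.27 in mock cells, 0.28 with *miR-486-5p* and −0.30 with *miR-486-3p*. Both falls were called, 2.06-fold after *miR-486-5p* (adjusted p 0.0480) and 3.08-fold after *miR-486-3p* (adjusted p 0.00865), each with an SE of 0.104 on the log2 scale, and the level was 1.49-fold lower after *miR-486-3p* than after *miR-486-5p* (adjusted p 0.0481). The brighter probe of *PFKFB3* was at 0.63 and 0.77 in mock cells, 0.12 with *miR-486-5p* and 1.07 with *miR-486-3p*. It lay below both mock arrays after the first strand and above both after the second, neither was called against mock, and the strands differed by 1.93-fold (adjusted p 0.0263). Its second probe was not well above background after *miR-486-5p*.

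All 6 genes of pyruvate and lactate handling had negative log2 differences after each strand, with medians of −0.61 and −0.57. *LDHA*, the lactate dehydrogenase subunit that favors lactate formation, was at 5.55 and 5.57 in mock cells, 4.82 with *miR-486-5p* and 3.68 with *miR-486-3p*. It was 3.68-fold below mock after *miR-486-3p*, with both probes called at adjusted p 0.00762, the smallest the test gave, and its 2 probes were at log2 differences of −0.80 and −0.68 after *miR-486-5p* (adjusted p 0.0503 and 0.0548). *LDHB*, the other subunit, was at −0.09 and −0.33 relative to mock and was not called. *SLC16A3* (MCT4), which carries lactate out of the cell, showed the reverse order of the strands: 7.04 and 6.99 in mock cells, 5.79 with *miR-486-5p* and 6.96 with *miR-486-3p*. It was 2.34-fold lower after *miR-486-5p* (SE 0.0914, adjusted p 0.0475), at −0.06 after *miR-486-3p*, and 2.25-fold apart between the strands (adjusted p 0.0156).

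Entry of pyruvate into mitochondrial oxidation is held back by the pyruvate dehydrogenase kinases (PDKs) and released by the phosphatases. *PDK1* was at 1.53 and 1.48 in mock cells, 1.02 with *miR-486-5p* and 0.80 with *miR-486-3p*, and only the second difference was called (1.63-fold lower, SE 0.0917, adjusted p 0.0193; 1.40-fold lower after *miR-486-5p*, adjusted p 0.0739). The 2 probes of *PDK3*, listed under different transcript accessions, differed widely after *miR-486-3p*: 1 fell by 2.37 (SE 0.120, adjusted p 0.0077) and the other by 0.45 (SE 0.0899, adjusted p 0.0395). After *miR-486-5p* the same probes were at −0.26 and −0.46. *PDP2* was measured by 4 probes, which ran from −1.14 to −0.63 after *miR-486-5p*, and 1 of them was called (log2 difference −1.03, SE 0.0878, adjusted p 0.0475); the probe with the lowest difference had mock levels of 0.74 and 1.50. After *miR-486-3p* its probes ran from −0.92 to −0.19 and none was called, whereas 6 of the 7 other settings called *PDP2* lower there. Of the 23 other glycolysis and pyruvate genes tested, 4 were lower after *miR-486-5p* and none higher (3 at an unadjusted p below 0.05 by limma, 1 by the methods' t-test), and after *miR-486-3p* the calls were 11 lower and 8 higher, beside 6.63% lower and 3.55% higher of all genes for the guide strand and 30.4% and 30.7% for the passenger strand. The second phosphatase *PDP1* was lower after both strands, 2.12-fold (adjusted p 0.0475) and 3.82-fold (adjusted p 0.00774). *MPC1*, a subunit of the carrier that brings pyruvate into mitochondria, was called in opposite directions, 2.02-fold lower after *miR-486-5p* and 3.07-fold higher after *miR-486-3p*. The largest rises among the other genes after *miR-486-3p* were those of *TIGAR*, a fructose 2,6-bisphosphatase under the control of p53 (7.08-fold, SE 0.101), and of the muscle enolase *ENO3* (6.54-fold, SE 0.0938), both at adjusted p 0.00762. Among 7 pentose phosphate genes, none was called after *miR-486-5p* (2 were lower at an unadjusted p by limma, 1 by the methods' t-test), and after *miR-486-3p* 3 were lower and 1 was higher.

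**Figure D3:**
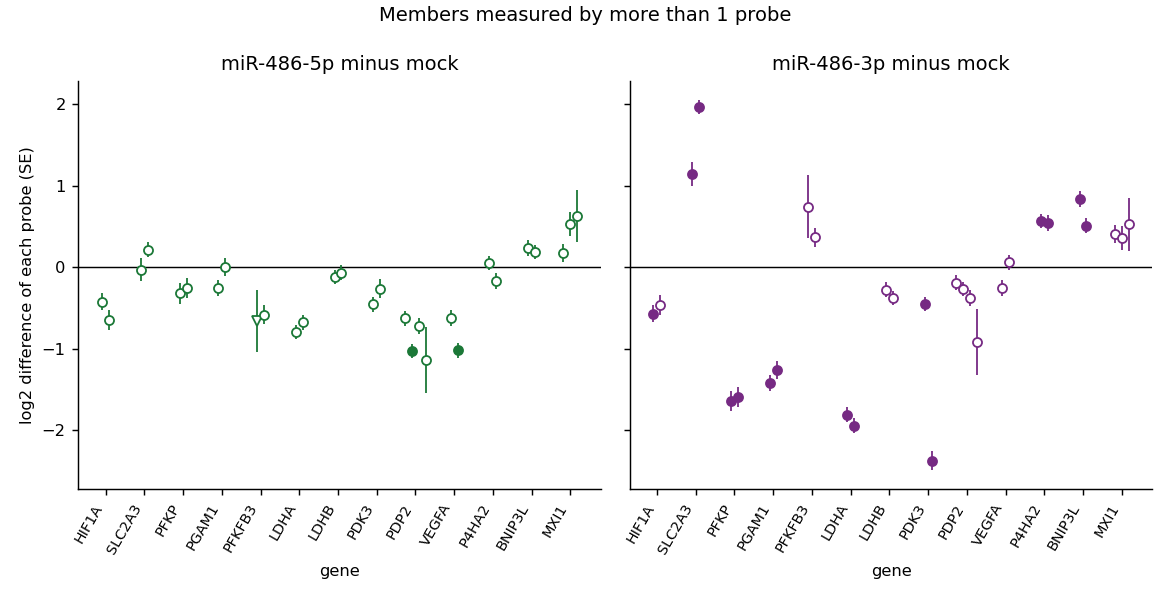
The log2 difference of each probe with its SE (y axis) is plotted for the 13 members with more than 1 probe in use, after *miR-486-5p* at left and *miR-486-3p* at right; filled points were called and the triangle is a bound. Probes of *LDHA*, *PFKP* and *PGAM1* lie near each other, while those of *PDK3* lie at −2.37 and −0.45 after *miR-486-3p*.

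Among secreted factors, *VEGFA*, the main growth factor of blood vessels, was at 0.77 and 0.71 in mock cells, −0.08 with *miR-486-5p* and 0.64 with *miR-486-3p*. Its probes were at −0.62 (adjusted p 0.0609) and −1.02 (adjusted p 0.0475) after *miR-486-5p*, so the call rested on 1 of the 2, and the called probe was 2.11-fold higher after *miR-486-3p* than after *miR-486-5p* (adjusted p 0.0164). *STC1*, a secreted regulator of calcium and phosphate, was at −0.61 and −0.46 in mock cells, 1.16 with *miR-486-5p* and −0.82 with *miR-486-3p*. It was 3.25-fold higher after *miR-486-5p* (SE 0.119, adjusted p 0.0475), at −0.28 after *miR-486-3p*, and 3.94-fold apart between the strands (adjusted p 0.0126), the widest such gap among the members. *ADM*, the vasodilator adrenomedullin, was at 3.59 and 3.52 in mock cells, 2.71 with *miR-486-5p* and 2.61 with *miR-486-3p*. Both strand arrays were below mock, by 0.85 and 0.95 on the log2 scale, and only the second was called (1.93-fold, adjusted p 0.0134; adjusted p 0.0504 after *miR-486-5p*). *ANGPTL4*, which inhibits lipoprotein lipase, was above mock on both strand arrays, at 4.05 and 4.0 in mock cells, 4.87 with *miR-486-5p* and 5.06 with *miR-486-3p*. Again only the second was called (2.05-fold, adjusted p 0.0116; adjusted p 0.0501 after *miR-486-5p*).

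The matrix enzyme *LOX* had the lowest log2 difference of all members after *miR-486-3p*. Its level was −1.10 and −1.14 in mock cells, −2.12 with *miR-486-5p* and −3.16 with *miR-486-3p*, which is 1.99-fold and 4.12-fold below mock (SE 0.0901 on the log2 scale for each, adjusted p 0.0475 and 0.00762), and the strands differed by 2.07-fold (adjusted p 0.0172). The collagen prolyl hydroxylase subunits *P4HA1* and *P4HA2* had differences of opposite sign: *P4HA2* was 1.47-fold higher after *miR-486-3p* with both probes called (adjusted p 0.0252 and 0.0333), and *P4HA1* had a log2 difference of −0.54 (adjusted p 0.0599).

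*BNIP3* and *BNIP3L* are receptors that mark mitochondria for removal by autophagy. *BNIP3* was at 5.52 and 5.40 in mock cells, 4.47 with *miR-486-5p* and 5.00 with *miR-486-3p*, both below mock and neither called (adjusted p 0.0503 and 0.0535). *BNIP3L* was at 1.89 and 1.83 in mock cells, 2.07 with *miR-486-5p* and 2.54 with *miR-486-3p*, where it was 1.60-fold higher with both probes called (adjusted p 0.0165 and 0.0306).

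The last group holds *NDRG1*, *ANKRD37*, *KDM3A*, *BHLHE40* and *MXI1*, of which the first 3 were called higher after *miR-486-3p*, *BHLHE40* lower and *MXI1* not. *NDRG1*, a stress-responsive gene linked to cell differentiation, was at −0.37 and −0.26 in mock cells, 0.55 with *miR-486-5p* and 2.22 with *miR-486-3p*. It was 5.78-fold above mock after *miR-486-3p* (SE 0.106, adjusted p 0.00762), the highest of the members, and 1.82-fold above it after *miR-486-5p* without a call (adjusted p 0.0525). *ANKRD37*, an ankyrin repeat gene that HIF-1 induces, was at 0.47 and 0.33 in mock cells, 0.06 with *miR-486-5p* and 1.76 with *miR-486-3p*. The *miR-486-3p* array was 2.58-fold above mock (SE 0.114, adjusted p 0.0109) and 3.26-fold above the *miR-486-5p* array (adjusted p 0.0136). *KDM3A*, a histone H3 lysine demethylase, was 1.48-fold higher after *miR-486-3p* (SE 0.0923, adjusted p 0.0276), with levels of 0.20 and 0.14 in mock cells and 0.74 with *miR-486-3p*. *BHLHE40*, a transcriptional repressor that hypoxia induces, went the other way, from −0.63 and −0.81 in mock cells to −2.45 after *miR-486-3p*, while it was at −0.74 after *miR-486-5p*. It was 3.31-fold below mock (SE 0.127, adjusted p 0.00956) and 3.26-fold below the *miR-486-5p* array (adjusted p 0.0149).

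**Figure D4:**
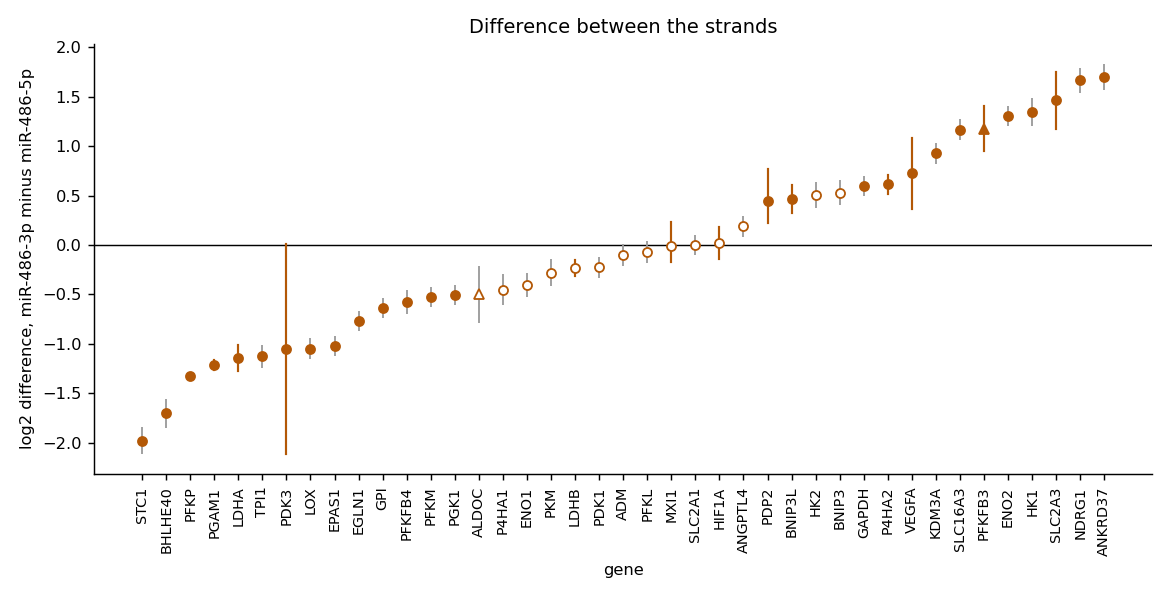
The log2 difference of the *miR-486-3p* array from the *miR-486-5p* array (y axis) is plotted for the 41 members in order of size; filled points were called, gray bars are the SE for genes with 1 probe, colored lines span the probes of the others, and triangles are bounds. The order runs from *STC1* at −1.98 to *ANKRD37* at 1.70, with *SLC2A1* near 0.

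Other genes that low oxygen is known to raise were counted next to the members. Of 26 tested, 4 were lower after *miR-486-5p* (*DDIT4*, *IGFBP3*, *ZNF395* and *VEGFB*) and none higher (3 at an unadjusted p by limma, 1 by the methods' t-test), with 22 of 26 below 0 and a median of −0.39; of all genes, 6.63% were called lower, 3.55% higher, and 47.3% lay below 0. *DDIT4*, which restrains mTOR signalling under stress, was at 3.98 and 4.0 in mock cells, 0.93 with *miR-486-5p* and 2.54 with *miR-486-3p*. Its fall of 8.33-fold after *miR-486-5p* (SE 0.0882, adjusted p 0.0475) was larger than that of any member, and it was 2.73-fold after *miR-486-3p* (adjusted p 0.00845). *IGFBP3*, which binds insulin-like growth factors, fell 3.73-fold after *miR-486-5p* (SE 0.0880, adjusted p 0.0475) and 1.42-fold after *miR-486-3p* (adjusted p 0.0309). After *miR-486-3p*, 12 of these genes were lower, 6 higher and 1 (*SLC6A8*) had probes called both ways, against 30.4% and 30.7% of all genes lower and higher. *VEGFC*, a growth factor of lymphatic vessels, had the lowest difference there, 5.18-fold below mock (SE 0.0889, adjusted p 0.00762), and the nuclear receptor *RORA* the highest, 4.40-fold above it (SE 0.101, adjusted p 0.00762). Over all 68 other pathway genes tested, 8 were lower and none higher after *miR-486-5p* (7 higher at an unadjusted p by limma, 3 by the methods' t-test), and after *miR-486-3p* the calls were 31 lower and 17 higher. These are 45.6% and 25% of the 68, against 30.4% and 30.7% of all genes; after *miR-486-5p* the 8 are 11.8%, against 6.63%. Among those above background on all 4 arrays, the highest log2 differences after *miR-486-5p*, those of *KDM4B* (0.63), *BPGM* (0.58) and *JMJD6* (0.54), were not called.

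**Figure D5:**
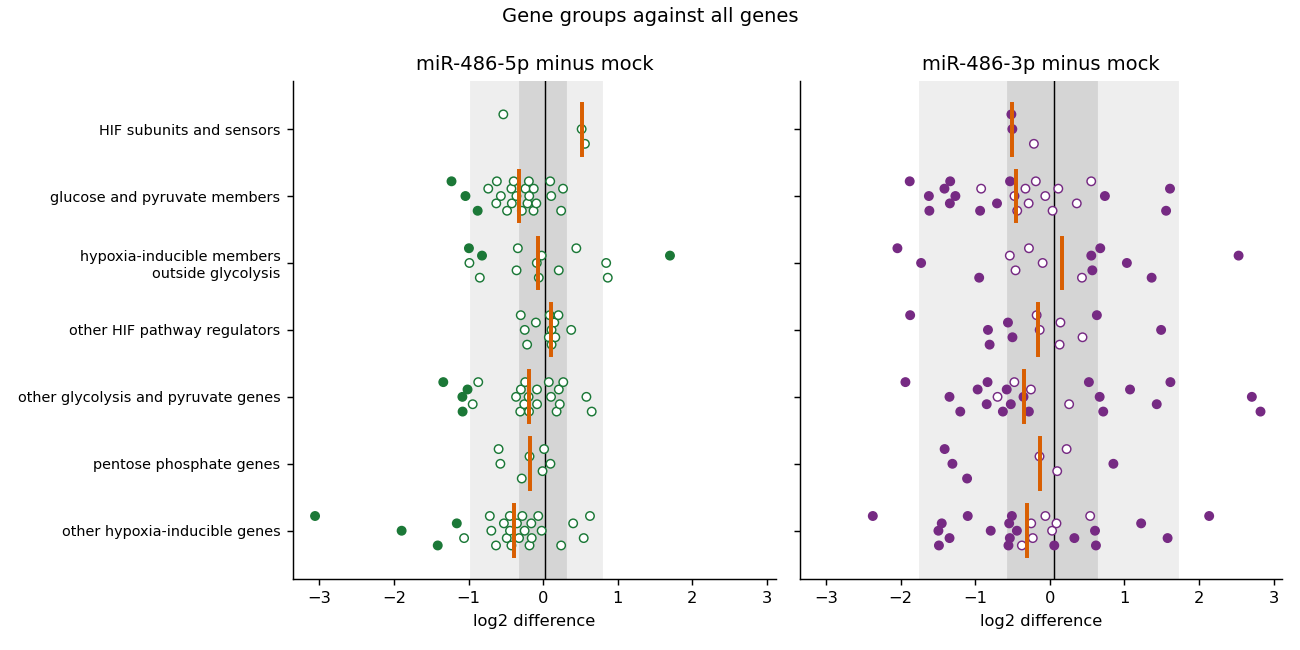
The log2 difference from mock (x axis) of each tested gene is plotted by group (y axis, offset only to separate points), with filled points for calls and an orange bar for the group median; gray bands span the middle 50% and 90% of all genes, whose median is the black line. After *miR-486-5p* the median of the other hypoxia-inducible genes is at −0.39, and *DDIT4* is the point at −3.06; after *miR-486-3p* most groups spread to both sides of the median of all genes.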

How the data were processed

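Total RNA of A549 cells was measured on 4 one-color arrays, 1 for each strand of pre-*miR-486* and 2 for mock cells, grouped by the sample labels. For each array the authors deposited the output of Agilent Feature Extraction (version 12.1.1.1, per the file headers), an intensity per spot on a linear scale that the software had already corrected for background; the authors also deposited log2 values of the same arrays. These correlated with the scanner's log2 signal at 0.9996 or more, have a median of 2.76 on every array, as after quantile normalization, and are 14.1% to 14.6% zeros; their centring is not given in the sources used here, so the scanner's signal was the main source.

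Control spots and outlier spots (50 to 72 an array) were left out, none was saturated, each array's 75th percentile (of 60901 spots) was subtracted from the log2 signal, and spots of a probe were averaged over 58201 probes. From 30690 to 31516 probes were well above background. If a probe was not so on one side of a comparison, its signal there was raised, where lower, to the dimmest signal that passed on that array, which makes the difference a bound. The limma test used the signal as read, without this raising. Probes were named by RefSeq accession through a table of GRCh38.p14 (31104 of 33080 matched), and a gene is the mean of its probes. limma (version 3.58.1, in R 4.3.3; lmFit and eBayes, 3 groups, prior of 1.75 degrees of freedom and an SD of 0.0893) was tested on simulated data first. Precision is limited by how few arrays there are, and p-values measure only the spread between these samples, which may be technical.

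The members, the 76 other pathway genes and the tests were chosen with earlier results of these data known. Any member may be named; those given in full are central genes of the pathway plus the 5 lowest and 5 highest members after each strand, and of the other genes the 3 lowest and 3 highest, with further ones named after their values were seen. Median scaling, quantile normalization, normexp background correction, other filters on dim probes, a mean-variance trend, the brightest probe, other fold limits, the methods' t-test and leaving out a mock array were tried as alternatives. The values of 1 other pathway gene are not reported here, although it is in the tallies.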

Additional observations from a re-analysis of the deposited data

How the results depend on the processing

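Under the alternatives tried, no member called against mock changed sign; differences between the strands were recomputed only as counts of calls, and the brighter probe of *PDK3* was at 0.01 there. The median log2 difference of the members after *miR-486-3p* was −0.14 with the authors' values and with quantile normalization, −0.24 with normexp, −0.28 with the brightest probe or without a filter on dim probes, −0.70 with median scaling, and −0.36 to −0.32 without either mock array; after *miR-486-5p* it was −0.18 with the authors' values and with quantile normalization, −0.31 with median scaling and −0.27 to −0.19 without either mock array. With a limit of 1 on the log2 scale, *miR-486-3p* left 5 members above and 9 below, and *miR-486-5p* 1 above and 2 below; with median scaling 5 and 3 were above 0.5. Calls after *miR-486-3p* were 26 lower and 5 higher with median scaling, 25 lower and 12 higher with normexp or a mean-variance trend, and 0 in either direction by the methods' t-test after adjustment (14 lower and 7 higher unadjusted). Calls after *miR-486-5p* ranged widely: 22 lower and 6 higher with normexp, 22 and 7 with the trend, 15 and 5 for probes bright on all 4 arrays, 11 and 3 with median scaling, 8 and 2 with quantile normalization, 12 and 3 by the methods' t-test unadjusted and 0 after adjustment, and 0 with the authors' values and without a filter, where limma gave 22 and 23 members at an unadjusted p below 0.05. Over the 16662 genes tested, calls after *miR-486-5p* were 3739 lower and 3591 higher with normexp and 4062 and 3591 with the trend. Median scaling gave 2329 and 1076, and quantile normalization 1381 and 721. With the authors' values, and with no filter on dim probes, no gene was called in either direction. With probes bright on all 4 arrays, 3049 and 2628 of 14960 genes were called. After *miR-486-3p*, normexp called 5387 genes lower and 7308 higher, the trend 5837 and 6036, and median scaling 7363 and 3202. Between the strands, no filter left 9 members lower and 8 higher, and 3083 and 3111 of 22439 genes. Uncalled members turned sign with the scaling: after *miR-486-3p* *HK2* went from 0.11 to −0.26 with median scaling and *SLC16A3* from −0.06 to 0.21 with quantile normalization. The cause of these shifts was not tested.

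No paired analysis was possible because each strand has 1 array. Without 1 mock array limma has no residual degree of freedom, so only values were recomputed. The files hold no mean signal, so normexp used the median signal; with 1 slide and 1 scan in all, the slide as a block was not run. Probes near background give only bounds.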
